A study of Mus musculus with 6 samples.

Results

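The 39 genes described here encode translation initiation and elongation factors other than the cap-binding complex eIF4F. They comprise eIF1 and eIF1A (4 genes), eIF2 (3), its exchange factor eIF2B (5), eIF3 (13), eIF4B and eIF4H (2), the eIF5 family (3), eEF1 (4) and 5 single factors. They were chosen by symbol with earlier results of these data known, so counts over them are descriptions and cannot serve as a test. All 39 were found among the 22186 genes of the deposited table. Messenger RNA was sequenced from primary adipose-derived stromal cells (ADSCs), the fibroblast-like cells of fat, of wild-type mice. There were 3 control libraries of ADSCs kept without regulatory T cells (Treg) and 3 libraries of ADSCs kept with Treg for 48 h, and the labels assign a batch from 1 to 3 to 1 library of each group. No library comes from a co-culture with other cells, so an effect of Treg and an effect of co-culture as such cannot be told apart. A culture time is labelled only for the co-culture libraries, so whether the controls were kept equally long is unknown. The labels give neither the sex and age of the mice nor say that the replicates are separate animals or cultures. The p-values therefore measure only how far these libraries scatter, and that scatter may be technical. Values are transcripts per 1000000 (TPM), a share of all transcripts corrected for gene length, so levels can be compared between genes, but sequencing depth is unknown.

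As background, eIF2 carries the initiator tRNA to the small ribosomal subunit, where eIF3, eIF1 and eIF1A help it to scan the messenger for a start codon. eIF5 then triggers GTP hydrolysis by eIF2, eIF2B recharges eIF2 with GTP, and eIF5B joins the large subunit. eEF1A brings each aminoacyl-tRNA to the ribosome, the eEF1B subunits recharge eEF1A, and eEF2 moves the ribosome to the next codon. The level of a factor's transcript does not measure translation.

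Most of the factors were slightly higher after Treg co-culture, while Eef1a1 and Eef2, the most abundant of them, and Eif3e and Eif4b were slightly lower. With limma on log2(TPM + 1) and Benjamini-Hochberg adjustment over 12405 genes, 18 of 39 members rose and 4 fell at an adjusted p of 0.05, against 19.8% and 18% of all genes tested (37.8% in either direction). Among the 6724 genes of at least 20 TPM, a limit set after the members' levels were seen, 46% passed (24.9% higher and 21.1% lower). The median log2 fold change was 0.09 over the members and 0.00 over all genes tested, and 31 of 39 members had a value above 0. The 3 co-culture values all lay above the 3 control values for 22 members and all below them for 4, against 25.3% and 24% of all genes (49.3% in either direction). The changes were small: the largest rise was 1.28-fold (Eif5a) and the deepest fall 0.903-fold (Eif4b). Within batches 1, 2 and 3 the members' median difference was 0.08, 0.08 and 0.06, with 30, 31 and 28 members above 0, and the median over all genes was between -0.00 and 0.01.

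Since these are bulk cultures, fewer cells of a type and less RNA per cell cannot be told apart. All 10 adipose stromal markers were present in every library, with a summed level of 9002 to 9510 TPM in controls and 7814 to 8170 TPM after co-culture, and 2 of them rose and 7 fell. Of 14 T cell and Treg markers 7 were listed at 0 in all libraries, among them Cd3e, Cd3d, Cd3g, Cd4, Il2ra and Ctla4, and the list summed to 3.84 to 4.41 TPM in controls and 4.25 to 4.56 TPM after co-culture. The 8 myogenic markers summed to 1054 to 1093 TPM in controls and 2839 to 2906 TPM after co-culture, and all 8 rose. The 8 proliferation markers, which also all rose, summed to 511 to 538 TPM and 779 to 805 TPM. The 6 macrophage markers summed to 87.7 to 94.9 TPM and 63.5 to 76.3 TPM, and the 5 endothelial markers to 37.6 to 39.9 TPM and 33.3 to 35.2 TPM. The part of these shifts in the members' changes was not tested. Treg co-culture 1 stood apart, with 118.7 TPM summed over 9 transcripts of adult heart and liver against 1.61 to 2.51 TPM elsewhere. Without that library 14 members rose and 3 fell, and 32.2% of all genes tested passed. Leaving out control 2 instead gave 14 and 4, with 32.5% of all genes. Over all single left-out libraries the counts ran from 14 to 19 and from 3 to 4.

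**Figure D1:**
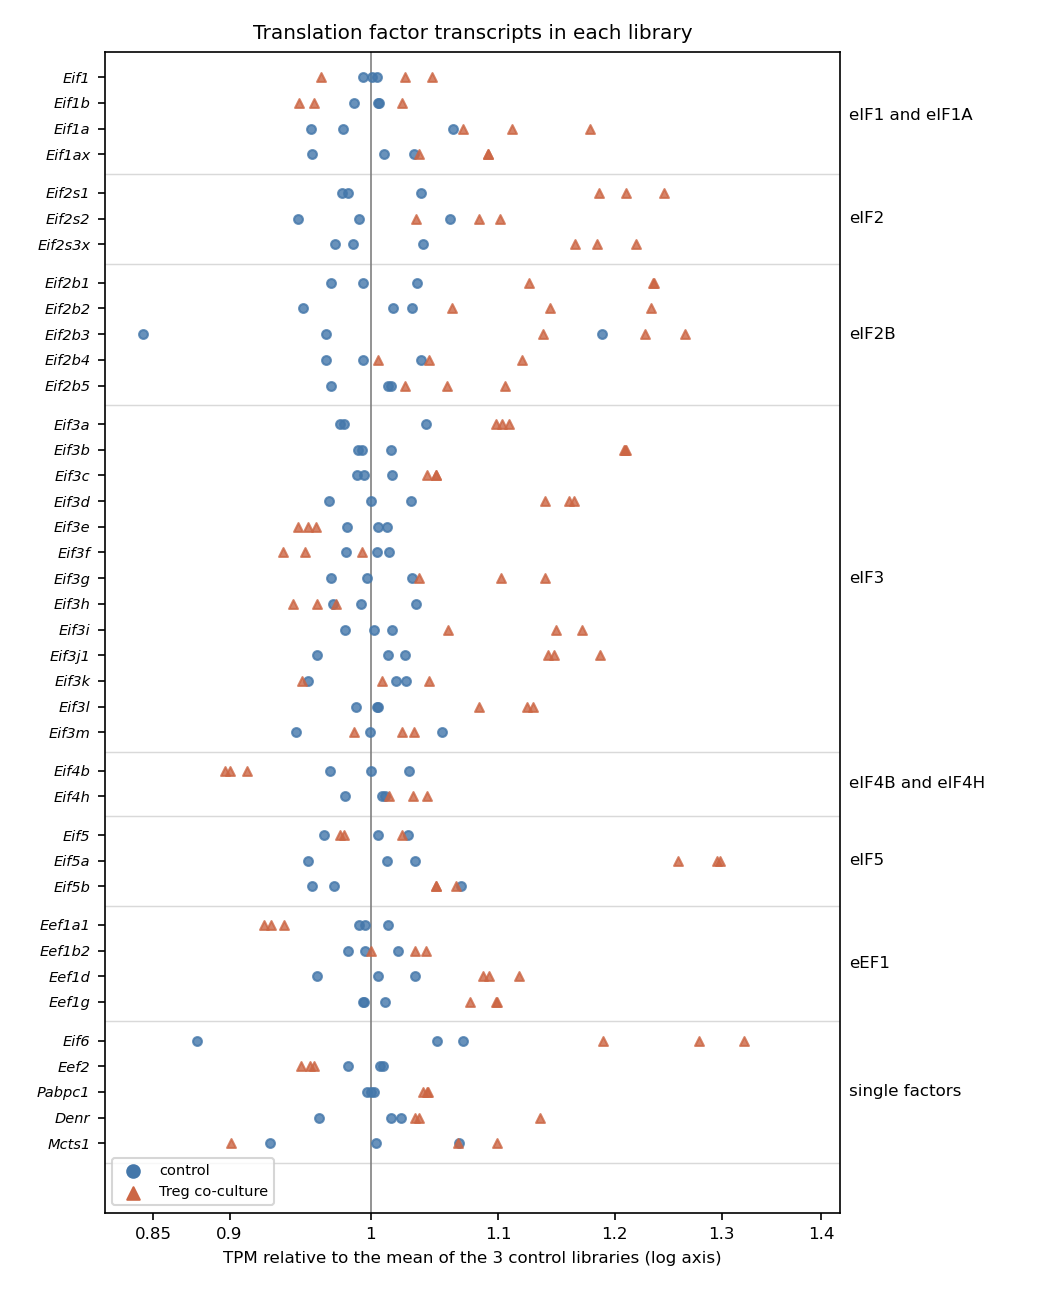
Each row is a gene, grouped by complex, and each point is a library: its TPM divided by the mean of the 3 control libraries, on a log axis (circles, control; triangles, Treg co-culture). The mean of the triangles lies farthest right for Eif5a, at 1.28, and farthest left for Eif4b, at 0.903, and the groups are separated for 26 of the 39 genes.

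The eIF2 complex, which delivers the initiator tRNA and is the target of the stress kinases that lower initiation, was higher in 2 of its 3 subunits. Of all genes tested 19.8% rose, and of those of at least 20 TPM 24.9%. Eif2s1 encodes the alpha subunit, which the kinases phosphorylate. Given in the order of replicates 1 to 3, as for all genes here, it stood at 86.1, 81.6 and 81.2 TPM without Treg and at 100.4, 103.3 and 98.4 TPM with them. All co-culture libraries were above all controls, with a log2 fold change of 0.28 (SE 0.04, limma adjusted p = 0.000292). Eif2s3x, the X-linked gene of the GTP-binding gamma subunit, had 154, 146 and 144 TPM in controls and 181, 173 and 175 TPM after co-culture, a log2 fold change of 0.25 (SE 0.03, limma adjusted p = 0.000291). Its groups were likewise apart. The beta subunit gene Eif2s2 was the most abundant of the 3, with 286, 268 and 256 TPM in controls and 297, 279 and 293 TPM after co-culture. Its groups overlapped through control 1, and its log2 fold change of 0.10 did not pass (limma adjusted p = 0.0750), and this depended on the controls. It passed with the replicate block (0.0458) and without control 1 (0.15, adjusted p = 0.0112), and was 0.06 without control 3 (adjusted p = 0.250). The beta transcript was 3.25 ± 0.0911 times as abundant as the alpha transcript in controls and 2.88 ± 0.154 times after co-culture (SD, n = 3 each, groups apart). Eif2s3y, the Y-linked copy of the gamma subunit gene, was present in all libraries at 68.8 to 78.0 TPM and did not pass (log2 fold change -0.07, limma adjusted p = 0.294). The ratio of the X-linked to the Y-linked transcript was 2.01 ± 0.141 in controls and 2.50 ± 0.118 after co-culture (SD, n = 3 each). An exact two-sided permutation test of this ratio, and of the beta to alpha ratio, gave p = 0.1, the smallest value that 3 against 3 libraries allow.

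The 5 subunits of eIF2B, the factor that recharges eIF2 and is blocked by its phosphorylated form, all had values above 0, with a median log2 fold change of 0.19, and 2 passed. Of all genes tested 37.8% passed in either direction, and of those of at least 20 TPM 46%. The eIF2B subunits were the least abundant complex, with group means of 24.5 to 57.8 TPM. Eif2b1, a regulatory subunit, went from 36.7, 38.2 and 35.8 TPM to 41.5, 45.6 and 45.5 TPM with the groups apart (log2 fold change 0.25, SE 0.05, limma adjusted p = 0.00377). Eif2b2, another regulatory subunit, went from 37.2, 39.7 and 40.3 TPM to 48.2, 41.5 and 44.7 TPM. Its groups were apart by a narrow margin, and its call (0.19, limma adjusted p = 0.0309) was lost with the replicate block (0.0521). It was also lost when control 1 (0.0972), control 2 (0.0566), co-culture library 1 (0.117) or co-culture library 3 (0.0693) was left out. Eif2b3, a catalytic subunit, had the widest spread, with 36.0, 29.3 and 25.5 TPM in controls and 38.3, 34.4 and 37.1 TPM after co-culture. Its log2 fold change of 0.28 (SE 0.10) missed the threshold (limma adjusted p = 0.0559) but passed with the replicate block (0.0313). Single controls moved the value in both directions, to 0.41 without control 1 (adjusted p = 0.00316) and to 0.17 without control 3 (adjusted p = 0.182). Eif2b4 (0.08) and Eif2b5, which carries the exchange activity (0.09), did not pass, and Eif2b4 was at 0.03 without Treg co-culture 2 (adjusted p = 0.717). The summed eIF2 transcripts were 2.71 ± 0.0955 times the summed eIF2B transcripts in controls and 2.71 ± 0.00364 times after co-culture (SD, n = 3 each).

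eIF3, the largest initiation factor, binds the small ribosomal subunit and recruits the messenger. Of its 13 subunit genes 8 rose and 1 fell, with a median log2 fold change of 0.13. The subunits outside the core octamer all rose, 5 of 5, with a median of 0.21. Of the 8 octamer subunits, which carry the PCI and MPN domains, 3 rose and 1 fell, with a median of 0.01. Of all genes tested 19.8% rose and 18% fell, and of those of at least 20 TPM 24.9% rose and 21.1% fell. The calls of Eif3c, Eif3e and Eif3g in these counts were close to the threshold, as given below. The difference between the octamer and the other subunits was not tested. Eif3b, the scaffold that holds the g and i subunits, was at 194, 189 and 190.1 TPM in controls and at 231 TPM in each co-culture library, a tight separation (log2 fold change 0.27, SE 0.03, limma adjusted p = 2.07e-05). Eif3j1, a loosely bound subunit at the mRNA entry channel, went from 105, 106 and 99.1 TPM to 118, 118 and 123 TPM (0.21, limma adjusted p = 0.00127). Eif3d, which can itself bind the cap, went from 179, 174 and 184 TPM to 208, 208 and 204 TPM (0.21, limma adjusted p = 0.000452). All 3 had separate groups. Eif3i (0.17), Eif3l (0.15) and Eif3a, the large scaffold subunit (0.14), also rose, and their calls held under all 20 alternatives run.

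Some eIF3 calls were close to the threshold. Eif3g, the RNA-binding subunit, was at 136, 139 and 144 TPM in controls and at 159, 154 and 145 TPM after co-culture, so that Treg co-culture 3 lay just above control 3 (0.13, limma adjusted p = 0.0311). This call was lost with the replicate block (0.0575). Leaving out control 1 (0.0917), control 2 (0.0752), co-culture library 1 (0.114) or co-culture library 2 (0.0871) also ended it. Eif3c, an octamer scaffold, went from 361, 352 and 354 TPM to 374, 371 and 374 TPM (0.07, limma adjusted p = 0.0393), and lost the call with the replicate block (0.0556), under median-of-ratios scaling (0.0506) and without any 1 of control 2, control 3 or the 3 co-culture libraries (0.0771 to 0.109). The member that fell was Eif3e, from 399.8, 388 and 397 TPM to 379, 377 and 374 TPM (-0.07, limma adjusted p = 0.0393). It lost the call with the replicate block (0.0547) and without any 1 of control 1, control 3 or the 3 co-culture libraries (0.0721 to 0.115). Eif3h (-0.06) and Eif3f (-0.06) did not pass (limma adjusted p = 0.118 and 0.125), with Eif3h at -0.08 without control 1 (adjusted p = 0.0466) and at -0.03 without control 2 (adjusted p = 0.356). Under quantile normalization Eif3h passed (-0.09, adjusted p = 0.0265). Eif3f passed without Treg co-culture 2 (0.0472). Eif3k (0.00) and Eif3m (0.02) did not pass either.

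Transcript levels of the eIF3 subunits lay closer together after co-culture. In controls they ranged from 103 ± 3.56 TPM for Eif3j1 to 459 ± 14.5 TPM for Eif3h, and after co-culture from 120 ± 2.56 to 440.0 ± 7.13 TPM for the same genes (SD, n = 3 each). The coefficient of variation over the 13 subunits was 43.9%, 44.0% and 43.8% in the controls, against 36.5%, 37.9% and 38.0% in the co-culture libraries. The groups did not overlap. The subunits with the 3 highest control levels, Eif3h, Eif3f and Eif3e, were those with values below 0.

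**Figure D2:**
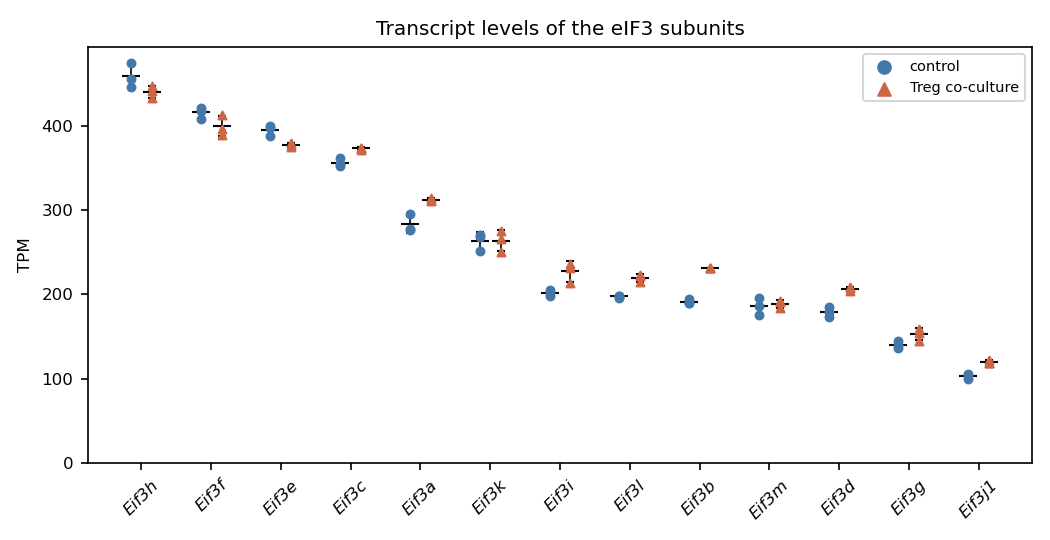
TPM of the 13 eIF3 subunit transcripts, ordered by their control mean (circles, control; triangles, Treg co-culture; bars, mean and SD of 3 libraries). The 3 most abundant transcripts sit lower after co-culture and most of the less abundant ones higher, Eif3b at 231 TPM in every co-culture library.

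Upstream sequence is shown for 4 eIF3 genes that rose, because 5 of the 10 eIF3 genes with a RefSeq promoter window (GRCm38.p6, 250 bases before to 50 after the annotated start) hold the letters CCGGAAG, the core recognised by ETS-family factors, on either strand. The authors' build is not settled by the labels, so the coordinates are those of the RefSeq table. The 80 bases before the annotated start read 5′ to 3′ on the gene's strand as follows, with CCGGAAG or its complement CTTCCGG in capitals.
Eif3c (chr7:126566367-126566446, minus strand): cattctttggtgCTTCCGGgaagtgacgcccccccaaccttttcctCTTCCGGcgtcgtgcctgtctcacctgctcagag
Eif3d (chr15:77970825-77970904, minus strand): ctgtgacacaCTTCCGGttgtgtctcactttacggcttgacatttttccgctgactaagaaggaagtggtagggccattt
Eif3g (chr9:20898591-20898670, minus strand): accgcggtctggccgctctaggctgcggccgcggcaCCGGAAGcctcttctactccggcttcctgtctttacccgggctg
Eif3l (chr15:79075143-79075222, plus strand): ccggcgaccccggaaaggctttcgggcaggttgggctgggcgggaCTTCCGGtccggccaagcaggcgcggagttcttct
Eif3c holds the letters at 2 positions and the other 3 genes at 1 position in these stretches. Over all members, 30 of 39 had a window and 11 of their 36 windows held the letters, against 8.86% of all 32851 windows. Of the 11 genes concerned 6 rose (Eif2b2, Eif3c, Eif3d, Eif3g, Eif3l and Eif5a) and 5 did not pass (Eef1b2, Eif1ax, Eif1b, Eif2b4 and Eif3m). The motif was chosen after the windows and the calls had been seen, and a match is a description of letters only. Another motif searched for, CACGTG, was held by 9 of 36 member windows against 7.15% of all windows. Of its 7 genes 2 rose, 1 fell and 4 did not pass.

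Among the factors of start codon selection, 1 of 4 passed, against 37.8% of all genes tested and 46% of those of at least 20 TPM. Eif1, which guards against wrong start codons, was at 435, 437 and 432 TPM in controls and at 446, 455 and 419 TPM after co-culture, so the groups overlapped on both sides (0.02, limma adjusted p = 0.710, 95% interval -0.05 to 0.08). Its less abundant paralog Eif1b was at 45.3 to 46.2 TPM and 43.5 to 47.0 TPM (-0.03). Eif1a, the autosomal gene of the scanning factor eIF1A, went from 159, 143 and 147 TPM to 176, 166 and 160.3 TPM, with the lowest co-culture library just above the highest control (0.16, limma adjusted p = 0.0192). The call was lost when control 2 (0.0742), control 3 (0.0636) or co-culture library 1 (0.0711) was left out. Its X-linked counterpart Eif1ax was at 38.9, 41.0 and 41.9 TPM and at 44.3, 44.3 and 42.1 TPM and did not pass (0.10, limma adjusted p = 0.133).

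Eif5a had the largest log2 fold change of all members. Despite its name, eIF5A acts in elongation and termination, where its hypusine residue relieves ribosomes stalled at stretches such as prolines. Its transcript was at 682, 724 and 739 TPM in controls and at 899, 928 and 926 TPM after co-culture. Every co-culture library was far above every control. The log2 fold change of 0.36 (SE 0.03, limma adjusted p = 7.84e-06) was called under all 20 alternatives (0.33 to 0.39). The second eIF5A gene, Eif5a2, was at 12.2, 13.9 and 12.8 TPM and at 13.2, 12.6 and 11.02 TPM and did not pass (-0.08, limma adjusted p = 0.531). Eif5a transcripts thus outnumbered those of Eif5a2 by 55.2 ± 2.97 to 1 in controls and 75.2 ± 8.12 to 1 after co-culture (SD, n = 3 each, groups apart). Neither enzyme of hypusine synthesis passed, with Dhps at 0.12 and Dohh at 0.17 (limma adjusted p = 0.386 and 0.162). Eif5, the GTPase activator of eIF2, stayed at 202 to 215 TPM and 205 to 214 TPM (-0.01, 95% interval -0.08 to 0.06), and Eif5b, the subunit-joining GTPase, was at 55.6 to 62.2 TPM and 61.0 to 61.9 TPM (0.08, limma adjusted p = 0.235). Eif5b passed without control 1 (0.13, adjusted p = 0.0429) and was at 0.05 without control 3 (adjusted p = 0.523).

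Eif4b and Eif4h encode the 2 helpers of the RNA helicase eIF4A. Eif4b was at 416, 392 and 404 TPM in controls and at 363, 364 and 368 TPM after co-culture. All co-culture libraries were below all controls, a log2 fold change of -0.15 (SE 0.03, limma adjusted p = 0.00164), and it was the 1 lower member called under all 20 alternatives. Eif4h went from 262, 262 and 255 TPM to 268, 271 and 263 TPM (0.04, limma adjusted p = 0.231). eIF4A itself is encoded by 2 genes, which moved in opposite directions. Eif4a1, the more abundant, rose from 814, 781 and 796 TPM to 958, 945 and 961 TPM (0.26, limma adjusted p = 7.21e-06). Eif4a2, named here after its values were seen, fell from 201, 194 and 188 TPM to 179.7, 172 and 174 TPM (-0.15, limma adjusted p = 0.00536), about as far as Eif4b. The summed transcripts of both were 2.45 ± 0.0291 times those of Eif4b in controls and 3.10 ± 0.0366 times after co-culture (SD, n = 3 each, groups apart).

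The elongation factors moved in opposite directions within 1 complex. Eef1a1, the main eEF1A gene, had rank 2 or 3 among all genes in every library, with 14598, 14351 and 14293 TPM in controls and 13507, 13313 and 13385 TPM after co-culture. It fell by 0.11 on the log2 scale (SE 0.01, limma adjusted p = 0.000102), from 1.44% to 1.34% of all TPM, and the groups were apart. In contrast Eef1g, a subunit of the exchange factor eEF1B, went from 1345, 1324 and 1324 TPM to 1434, 1463 and 1462 TPM (0.13, limma adjusted p = 0.000293). Eef1d, another exchange subunit, went from 277, 285 and 265 TPM to 308, 301 and 299.8 TPM (0.14, limma adjusted p = 0.00571), and Eef1b2 from 471, 477 and 489 TPM to 499, 495 and 479 TPM without passing (0.04, limma adjusted p = 0.292). Eef1a1 transcripts were 6.91 ± 0.0542 times the summed Eef1b2, Eef1d and Eef1g transcripts in controls and 5.96 ± 0.0676 times after co-culture (SD, n = 3 each, groups apart). Eef2, the translocation factor, was at 2918, 2988 and 2994 TPM and at 2817, 2835 and 2843 TPM, with the groups apart (-0.07, SE 0.02, limma adjusted p = 0.00694). Quantile normalization ended the calls of Eef1a1 (-0.02, adjusted p = 0.0912) and Eef2 (-0.01, adjusted p = 0.637), and so did limma without the mean-variance trend (0.0682 and 0.204), which also ended that of Eef1d (0.0559). Eef1a2, the eEF1A gene of adult muscle and neurons, was at 1.00, 1.23 and 1.08 TPM in controls and at 0.524, 0.469 and 0.704 TPM after co-culture, below the 1 TPM filter, so it was not tested.

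**Figure D3:**
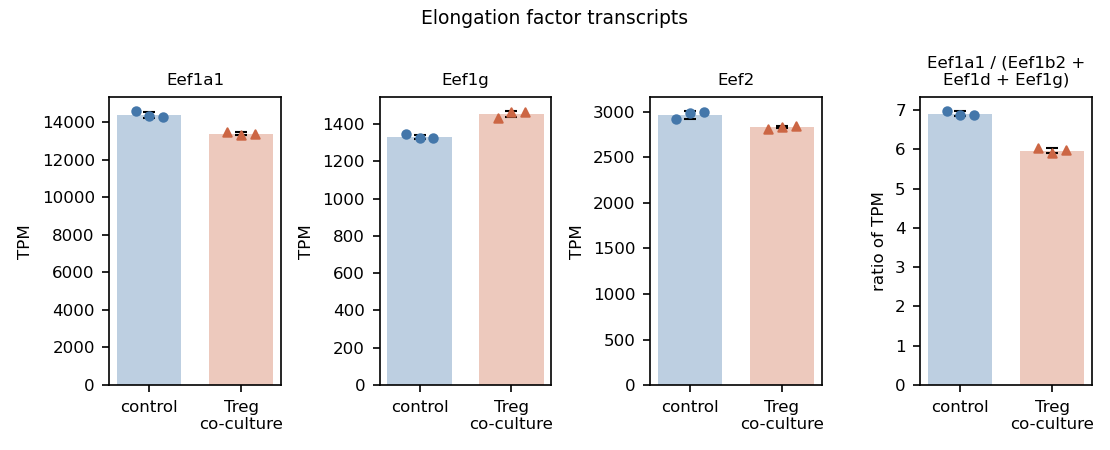
TPM of Eef1a1, Eef1g and Eef2 and the ratio of Eef1a1 to the summed eEF1B subunit transcripts in each library (circles, control; triangles, Treg co-culture; columns with bars, mean and SD of 3 libraries). Eef1a1, Eef2 and the ratio are lower after co-culture and Eef1g is higher, with no overlap between groups.

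Of the single factors, Eif6 and Pabpc1 rose and Eef2, described above, fell. Eif6, which keeps the large ribosomal subunit from joining too early and takes part in its maturation, was at 64.0, 78.1 and 76.6 TPM in controls and at 93.1, 96.3 and 86.7 TPM after co-culture. The groups were apart, with a log2 fold change of 0.34 (SE 0.07, limma adjusted p = 0.00405), and the low control 1 widened the gap. The difference was 0.53, 0.30 and 0.18 in batches 1, 2 and 3, and the value ran from 0.25 to 0.39 when 1 library was left out. Pabpc1, the main cytoplasmic poly(A)-binding protein gene, had little spread, with 1320.2, 1327 and 1323 TPM in controls and 1377, 1379.9 and 1381 TPM after co-culture (0.06, SE 0.02, limma adjusted p = 0.0133). Its call was lost under quantile normalization (0.01, adjusted p = 0.585) and when co-culture library 3 was left out (0.0504). The related Pabpc4 rose further, from 193, 188 and 194 TPM to 209, 225 and 216 TPM (0.18, limma adjusted p = 0.00183), and Pabpc1 over Pabpc4 was 6.91 ± 0.123 in controls and 6.36 ± 0.229 after co-culture (SD, n = 3 each, groups apart). Denr and Mcts1, which act as a pair in reinitiation and ribosome recycling, did not pass (0.09 and 0.03, limma adjusted p = 0.134 and 0.799). Denr had 83.3 to 88.5 TPM in controls and 89.4 to 98.2 TPM after co-culture, and Mcts1 had 49.4 to 56.9 TPM and 48.0 to 58.6 TPM. The Denr difference was 0.24 in batch 2 against 0.02 and 0.03 in batches 1 and 3, and it was 0.05 without Treg co-culture 2 (adjusted p = 0.418).

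The members were also described by whether their transcripts are on a list of TOP messengers. TOP messengers begin with a run of C and T bases, and their translation is known to depend on mTORC1 and the RNA-binding protein LARP1. Of the members 10 are on a list of TOP messengers taken from textbook knowledge, namely Eef1a1, Eef1b2, Eef1d, Eef1g, Eef2, Eif3e, Eif3f, Eif3h, Eif4b and Pabpc1. The list was written with earlier results of these data known, so the split by it is a description and cannot serve as a test. On this list 3 rose, 4 fell and 3 did not pass, with a median log2 fold change of -0.06, while 24.9% of all genes of at least 20 TPM rose and 21.1% fell. Of the 4 that fell, Eif3e lost its call with the replicate block (0.0547), Eef1a1 and Eef2 lost theirs under quantile normalization (0.0912 and 0.637), and Eif4b kept its call under all 20 alternatives. Of the other 29 members 15 rose, 14 did not pass and 0 fell in limma (0 also at an unadjusted p of 0.05, and 0 in each of the 20 alternatives), with a median of 0.13. No test of the difference between these subsets was made. The TOP members were also among the more abundant, at 276 TPM or more on average in either group, and the part of abundance was not tested. Cytosolic ribosomal protein genes, whose messengers are of the TOP class too, had 22 of 80 higher and 3 lower, and a median of 0.04. The shares were 19.8% and 18% of all genes tested, and 24.9% and 21.1% of genes of at least 20 TPM. Larp1 itself rose from 86.3, 84.1 and 89.8 TPM to 91.7, 95.4 and 96.4 TPM (0.12, limma adjusted p = 0.0302).

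Bases near the annotated start are shown for 4 of the 5 TOP-list members with a RefSeq window, to let the C and T runs be seen. The other, Eef1b2, had a longest run of 4 bases. The stretches shown are 30 bases each on the gene's strand (GRCm38.p6). The longest run of C and T within 10 bases before to 29 after the start is in capitals.
Eef1a1 (chr9:78481710-78481739, minus strand): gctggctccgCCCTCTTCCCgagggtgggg
Eef2 (chr10:81176634-81176663, plus strand): gacgtcagcggTCTCTTCCgccgcagccgc
Eif3f (chr7:108934403-108934432, plus strand): gttctaggCTCTCTCTCTTTCTCggcaaga
Eif4b (chr15:102073771-102073800, plus strand): gacgccgcgccaCCCCCTCgcgctgcttta
The runs are 10, 8, 15 and 7 bases long and begin at offsets -5, 14, -4 and 10 from the annotated start. Those of Eef2 and Eif4b thus lie after that start, and the Eef2 stretch does not contain it. A run of at least 8 bases was present in 8 of 36 member windows and in 14.36% of all windows, and the 8 included Eif2s3x, Eif3l and Eif2b2, which rose and are not on the list. Annotated starts can differ from the starts used in these cells.

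**Figure D4:**
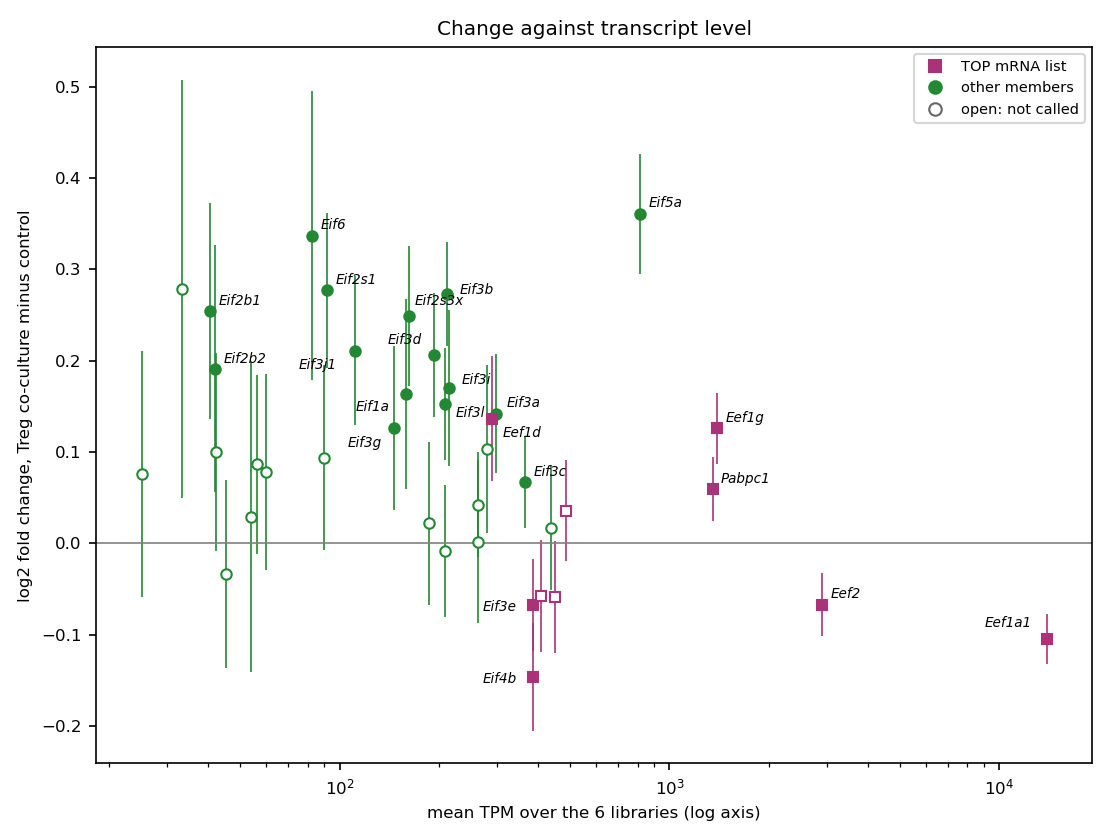
Log2 fold change (Treg co-culture minus control, with limma's 95% confidence interval) of each member against its mean TPM over the 6 libraries, on a log axis. Squares are the 10 genes on the TOP list and circles the other 29, filled symbols passed the test and are named, and the 4 genes that fell are all squares.

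By summed level the members took 2.72% to 2.75% of all TPM in controls and 2.68% to 2.70% after co-culture. Eef1a1 alone held 13313 TPM or more in every library, and without it the sum was 12942, 12987 and 12953 TPM in controls and 13506, 13547 and 13440.4 TPM after co-culture. The direction of the sum thus depends on 1 gene.

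Other genes of the pathway came from lists written from textbook knowledge. Over all of these lists, with the hypusine enzymes and the paralogs below, 14 of 50 tested genes rose and 7 fell. Of all genes tested 19.8% rose and 18% fell, and of those of at least 20 TPM 24.9% rose and 21.1% fell. Of 10 eIF4F subunits and 4E-BPs 4 rose and 2 fell, led by Eif4a1, the cap-binding Eif4e (0.28) and the scaffold Eif4g1 (0.24). Of 7 genes that control eIF2 phosphorylation 3 fell and the others did not pass. The interferon-induced kinase gene Eif2ak2 went from 42.6, 43.5 and 43.7 TPM to 33.0, 35.2 and 33.4 TPM (-0.35, limma adjusted p = 0.000267). Impact, an inhibitor of the kinase GCN2, fell by 0.25 and the stress-induced phosphatase subunit gene Ppp1r15a by 0.23 on the log2 scale. Of 6 termination and recycling genes 4 rose, among them the ribosome recycling ATPase Abce1, from 140.4, 140.3 and 144 TPM to 173, 171 and 172 TPM (0.28, limma adjusted p = 3.57e-05), Gspt1 (0.18) and Etf1 (0.17), which encode the release factors. Of 9 genes for eEF2 kinase and diphthamide synthesis only the kinase gene Eef2k passed, and it fell (-0.19, limma adjusted p = 0.0421). Of 7 genes for partners of poly(A)-binding protein, Larp1 and Larp4 (0.12) rose and the deadenylase subunit gene Pan3 (-0.20) fell.

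Of 15 paralogs and functional relatives of the members, 9 were tested and 4 rose. Eef1e1, which despite its name encodes an auxiliary protein of the aminoacyl-tRNA synthetase complex, went from 44.9, 47.4 and 39.4 TPM to 63.6, 65.4 and 60.5 TPM (0.52, limma adjusted p = 0.000157). The others were Pabpc4, Eif1ad (0.26) and the alternative initiation factor Eif2a (0.14), while Eif2d (0.07), Eif4g2 (0.04) and Mcts2 (0.22) did not pass. Eif3j2, the near-identical copy of Eif3j1, was at 0.000 to 0.154 TPM in controls and 0.301 to 0.893 TPM after co-culture and was not tested, and Pabpc2 and Pabpc6 were listed at 0 in all libraries.

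Some members share sequence with other genes, and neither the labels nor the table say how such reads were assigned. Of all 50-base windows of the longest coding transcript in GENCODE M21, 64.3% of Eef1g, 60.6% of Eef1a1 and 54.8% of Eif3j1 also occurred in transcripts of other genes. The most shared were Gm4366 for Eef1g (58.4%), Gm13456 for Eef1a1 (37.1%) and Eif3j2 for Eif3j1 (39.4%). The share was 40.0% for Eif3m, 36.2% for Eif2s3x, 31.6% for Eif1, 27.8% for Eif2s2 and 7.13% for Eif5a. It was 0% for Eif3a, Eif3b, Eif3l and Eif2b1. The values of the first group are therefore less certain than those of the last.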

How the data were processed

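The authors deposited 1 table of TPM for the 6 libraries, with genes named by NCBI Gene number. Per the labels' protocols, mRNA was captured on beads and fragmented by heat. The builds in the submitters' processing notes (GRCm38, mm10, GRCm39) come without a role. The aligner, counter and annotation were not given in the sources used here. TPM keeps no depth and is a share, so values of different genes are not independent. Symbols came from an NCBI RefSeq table (21992 of 22186 rows matched). Tests used log2(TPM + 1), which understates changes of low genes, for the 12405 genes averaging 1 TPM or more, with limma 3.58.1 in R 4.3.3 (lmFit, eBayes with trend) and no block. The Benjamini-Hochberg adjustment covered all 12405, with 0.05 as the threshold. SE are limma's moderated standard errors. All members are named, and of the other pathway lists every paralog and up to 3 genes with the lowest adjusted p. The members and lists were chosen with earlier results of these data known. The 20 alternatives were pseudocounts, filters, scalings, variance models, a stricter threshold, a replicate block, and left-out libraries or batches. Labels say that same-numbered libraries share a batch, and their deviations from the group means correlated at 0.0115, -0.0146 and 0.00402. On simulated data for this comparison (12405 genes, 100 genes of at least 20 TPM changed per size), limma recovered 100% of changes of 1 and 68% of changes of 0.2 on the log2 scale, with 9 false calls. The simulated noise depended only on expression level, and far fewer genes were changed than the 37.8% called in the data. Changes below 0.2 were not simulated, so these rates do not carry over to the smaller changes of many members. No 2 columns were copies: at most 60 of 13935 genes had equal values in any of 15 pairs. Tables and plots were made in Python 3.11.15 (pandas 2.3.3, matplotlib 3.10.9).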

Additional observations from a re-analysis of the deposited data

How the results depend on the processing

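The counts of 18 higher and 4 lower members ran from 14 to 19 and from 3 to 4 when 1 library was left out. In those fits 32.1% to 34% of all genes tested were called, against 37.8% in the main fit. Without the mean-variance trend 12 were higher and 1 lower, as Eef1a1, Eef1d, Eef2, Eif1a, Eif2b2, Eif3c, Eif3e, Eif3g and Pabpc1 were no longer called (adjusted p 0.0559 to 0.238). The lower count was 2 with the replicate block when batch 2 was left out. With the replicate block on all libraries 17 members were higher and 3 lower, and apart from the calls of Eif2b2, Eif2b3, Eif2s2, Eif3c, Eif3e and Eif3g it changed no other member's call. At an adjusted p threshold of 0.01, 13 were higher and 3 lower, and under quantile normalization 15 and 3. Of all genes tested 24.5% were called at 0.01, 37.3% under quantile normalization and 33.6% without the trend. With the replicate block the share was 36.2%, and 27.8% with batch 2 left out. Of the 3 lower under quantile normalization, 2 (Eif3e and Eif4b) were also lower in the main fit, and the other was Eif3h (-0.0889, adjusted p = 0.0265). Under all 20 alternatives 12 members kept a higher call and 1, Eif4b, a lower one, and 0 of the 22 called members changed sign. Of the members that were not called, 5 changed sign. Under quantile normalization Eif1 was at -0.0178 and Eif3k at -0.0274. Under median-of-ratios scaling Eif3k was at -0.00274, and after rescaling without mitochondrial and ribosomal protein genes at -0.00173. With the replicate block and batch 1 left out Eif3k was at -0.0377. With batch 2 left out Eif1 was at -0.00519, Eif3k at -0.0159 and Mcts1 at -0.000268, and with batch 3 left out Eif5 was at 0.00758. When 1 library was left out, Eif1 ran from -0.00856 to 0.0514, Eif3k from -0.0319 to 0.0384, Eif3m from -0.0173 to 0.0605, Eif5 from -0.0331 to 0.0119 and Mcts1 from -0.0253 to 0.116. Leaving out 1 library moved the value by over 1.5 times for 13 of the 17 members not called and 0 of the 22 called. This move is relative to the main value, so values near 0, such as those of Eif3k and Eif5, reach it with small shifts. The contrast thus follows in part from how members are called. The cause of these shifts was not tested. Depth is unknown, so no counting error can be given.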
